A study of Mus musculus with 17 samples.

Results

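The 10 genes described here make, store, take up, degrade or sense serotonin in the colon: Tph1, Tph2, Ddc, Slc18a1, Slc6a4, Maoa, Maob, Htr2b, Htr3a and Htr4. They were picked by gene symbol from the 23719 rows of a table of raw counts, and each symbol matched 1 row. The counts came from colons of 17 male C57BL/6 mice that were 32 to 34 weeks old. The 9 Control mice drank water, and the 8 GWI mice, a model of Gulf War illness, received 7 days of pyridostigmine bromide (PB), which reversibly blocks acetylcholinesterase, at 2 mg/kg. After PB was withdrawn the GWI mice recovered for 21 days, and colons were collected on day 30. The question was whether the transcripts of serotonin handling in the colon still differed between Control and GWI mice after this recovery.

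Most serotonin of the body is made in the gut by enterochromaffin cells, a class of hormone-secreting epithelial cells. Tryptophan hydroxylase turns tryptophan into 5-hydroxytryptophan, aromatic amino acid decarboxylase turns that into serotonin, and a vesicular transporter loads it into secretory granules. Released serotonin acts on receptors of enteric neurons, muscle and epithelium, is cleared by the serotonin transporter, and is oxidised by monoamine oxidases. The colon contains other cell types besides, so a level measured here is a sum over the whole tissue, and fewer cells of a type cannot be told apart from less RNA in each cell.

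Libraries held 16293537 to 20741212 counts, and levels are given as CPM, the counts of a gene relative to the size of the library after trimmed-mean (TMM) scaling. The TMM factor was 0.799 for Control replicate 9 and 0.941 to 1.11 for the other mice, so the levels of that mouse were raised by scaling. Colon epithelium markers were high in all mice, with summed levels of 11 markers between 28945 and 50557 CPM and Car1 as the most abundant at a mean of 12236 CPM. Some libraries stood apart in marker genes, which were picked out after their values were seen. Control replicates 6 and 7 held small intestine transcripts, with 119 and 314 CPM of Fabp6 (the ileal bile acid binding protein), against at most 6.90 CPM in every other mouse. Over all 11 small intestine markers these mice summed to 978 and 2042 CPM. Control replicate 9 (1104 CPM) and GWI replicate 7 (988 CPM) were above Control replicate 6 in this sum. Control replicate 1 and GWI replicate 5 had the highest levels of the water channel Aqp8, 1934 and 1047 CPM, and the lowest of the bile acid transporter Slc10a2, 11.8 and 24.7 CPM. Control replicates 7, 8 and 9 had lower summed levels of 10 smooth muscle markers (6790, 4702 and 3690 CPM) than the other Controls, whose lowest value was 11188 CPM.

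Of the 10 genes, 9 passed the filter on low counts, and 3 of these differed between groups at an adjusted p-value under 0.05. Ddc rose in GWI colons, and Maob and Htr2b fell. Over all 14146 tested genes 3792 were called, which is 26.8%, with 1889 (13.4%) higher and 1903 (13.5%) lower in GWI. The DESeq2 Wald test, whose calls are given below beside those of edgeR, called 32.6% of all tested genes, and limma-voom called 57.2%. The serotonin genes, with 1 called higher and 2 called lower among 9, were thus called about as often as other genes of the colon, and the count says nothing particular about serotonin. Their median log2 fold change (GWI against Control) was -0.23, beside -0.06 over all tested genes. Tph1, Slc18a1, Slc6a4, Maoa, Htr3a and Htr4 did not pass the test.

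**Figure D1:**
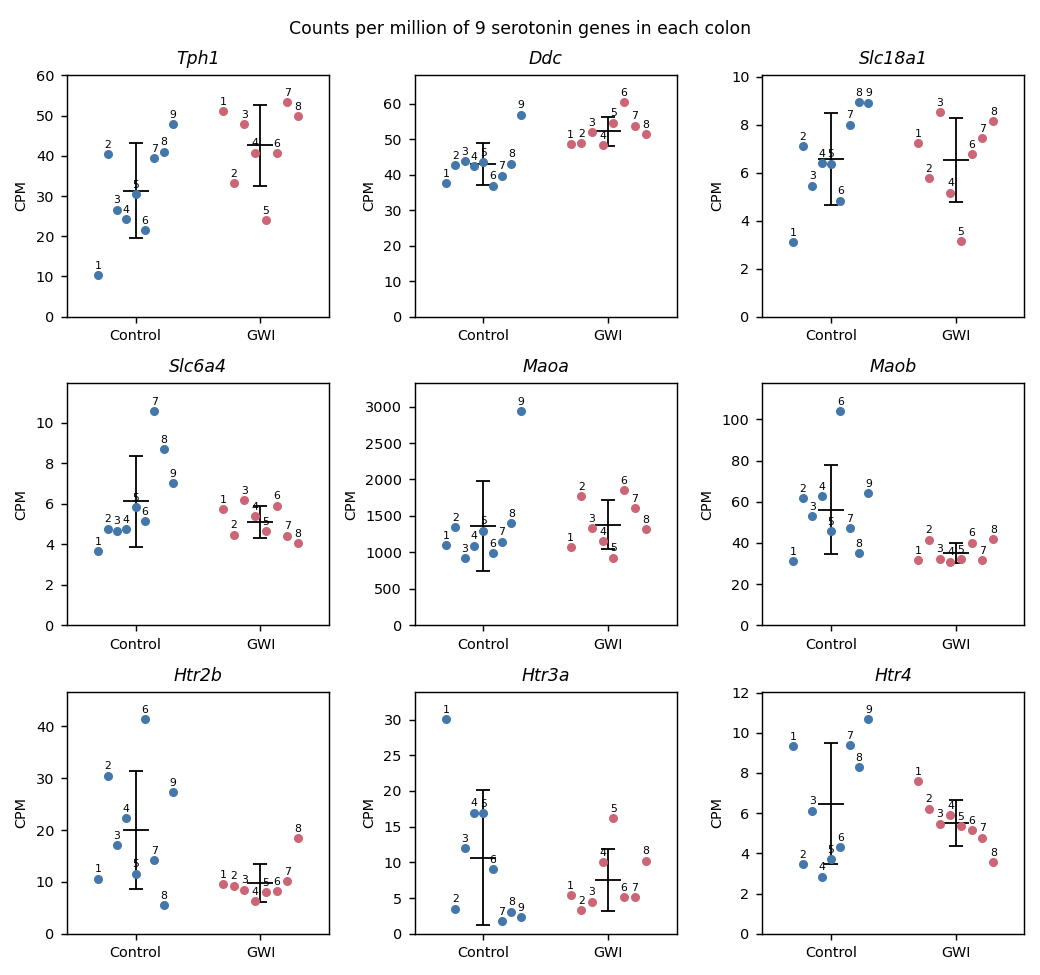
CPM (vertical axes, from 0) of the 9 tested serotonin genes in each Control (blue, n = 9) and GWI (red, n = 8) colon, with replicate numbers beside the points and the mean and SD as black bars. GWI colons lay between 48.2 and 60.3 CPM for Ddc and between 30.9 and 41.9 CPM for Maob, and each gene's groups overlapped.

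Synthesis begins with tryptophan hydroxylase, and in these colons its transcript was that of Tph1, the form of enterochromaffin cells. Tph1 (chromosome 7, 46644641 to 46672537, minus strand, GRCm38) had 10.4 CPM in the lowest Control, a median of 30.5 and a highest value of 47.8 CPM. In GWI colons Tph1 ran from 24.0 through a median of 44.3 to 53.3 CPM. In 4 of 8 GWI mice Tph1 was above every Control, and the lowest mouse of each group was Control replicate 1 and GWI replicate 5. The Tph1 log2 fold change of 0.44 (SE 0.23) did not pass the test, with an adjusted p of 0.155 and a 95% interval of -0.0096 to 0.90. Without both of those mice, an alternative chosen after seeing the data, Tph1 was at 0.42 with an adjusted p of 0.0581. The gene was called with limma-voom and sample quality weights (0.56, adjusted p 0.00404) and with the enteroendocrine marker score as a covariate (0.71, adjusted p 0.0197), while with the muscle minus epithelium marker score as a covariate it was at 0.052 (adjusted p 0.907). Its adjusted p spanned 0.00404 to 0.907 over all alternatives. Tph2, the form of neurons, had 0 to 3 counts per mouse, 10 in all Controls and 7 in all GWI mice together, and was not tested.

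Ddc encodes aromatic amino acid decarboxylase, which makes serotonin from 5-hydroxytryptophan and also dopamine from L-DOPA. Ddc (chromosome 11, 11814101 to 11898144, minus strand) ranged from 36.9 to 56.9 CPM in Controls, with a median of 42.7, and from 48.2 to 60.3 CPM in GWI colons, with a median of 51.6. All 8 GWI mice were above 8 of the 9 Controls, and only Control replicate 9 reached into their range. By library size alone, without TMM factors, Control replicate 9 had 45.4 CPM, and Control replicate 3 was the highest Control with 48.8 and the only one within the GWI range of 48.4 to 57.2. Ddc rose by a log2 fold change of 0.28 (SE 0.083, adjusted p 0.0197), or 1.22-fold. The call was lost with upper-quartile scaling (0.19, adjusted p 0.0836), without Control replicates 6 and 7 (0.24, adjusted p 0.0665) and with the muscle minus epithelium marker score as a covariate (0.11, adjusted p 0.416). Its adjusted p spanned 0.000375 to 0.416 over all alternatives, and its direction was the same in each.

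Tryptophan hydroxylase needs tetrahydrobiopterin, and 6 genes that make, recycle or regulate this cofactor all passed the filter. Spr, the sepiapterin reductase of the last step of its synthesis, fell by 0.29 on the log2 scale (SE 0.083, adjusted p 0.0165), from 132 ± 14.9 CPM (SD, n = 9) to 107 ± 10.1 CPM (SD, n = 8). Spr was below every Control in 4 of 8 GWI mice, and 6 of 9 Controls were above every GWI mouse. The call was lost with the muscle minus epithelium marker score as a covariate (-0.18, adjusted p 0.229), and the adjusted p of Spr spanned 3.55e-05 to 0.229 over all alternatives. Gch1, the first enzyme of the route, was at a log2 fold change of 0.27 (adjusted p 0.343), and Gchfr, its feedback regulator, was at 0.55 (adjusted p 0.0994). Pts, Qdpr and Pcbd1 had log2 fold changes of -0.41, -0.17 and -0.23 and did not pass the test. Control replicate 9 had the highest Pts level, 106.9 CPM against 59.8 CPM in the next Control, and without it the Pts value was -0.17. Pts was called with the muscle minus epithelium (-0.89, adjusted p 0.00502) and enteric neuron (-0.45, adjusted p 0.00972) marker scores as covariates, and its adjusted p spanned 0.00502 to 0.478 over all alternatives. Without Control replicate 1 Gch1 (0.46), Gchfr (0.78) and Pcbd1 (-0.30) were called. Of the 6 genes, edgeR and the DESeq2 Wald test each called 1 (Spr), and limma-voom called 3 (Spr, Qdpr and Gchfr).

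Storage in granules of enterochromaffin cells depends on Slc18a1, the vesicular monoamine transporter 1. Slc18a1 (chromosome 8, 69037711 to 69089235, minus strand) had 6.57 ± 1.93 CPM (SD, n = 9) in Control and 6.53 ± 1.77 CPM (SD, n = 8) in GWI colons. Its groups overlapped almost wholly, with Control replicate 1 and GWI replicate 5 lowest, and the log2 fold change was -0.0080 (SE 0.21, adjusted p 0.982), with a 95% interval of -0.42 to 0.41. Slc18a2, the related transporter of neurons and mast cells, was at a log2 fold change of -0.52 (SE 0.22, adjusted p 0.0840). Slc22a3 and Slc29a4, low-affinity carriers that also take up serotonin, had log2 fold changes of 0.06 and -0.15. Slc18a2 was called without Control replicate 8 (-0.61), without Control replicate 9 (-0.57) or without GWI replicate 8 (-0.63), and turned to 0.31 with the muscle minus epithelium marker score as a covariate. Of the 5 other storage and uptake genes, 4 were tested and 0 were called by edgeR, with 1 gene under an unadjusted p of 0.05, 0 called by the DESeq2 Wald test and 2 called by limma-voom, and Slc22a2 had at most 2 counts in any mouse.

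Slc6a4 is the serotonin transporter, which ends the action of released serotonin. Slc6a4 (chromosome 11, 76998603 to 77032340, plus strand) was at 3.66 to 10.6 CPM in Controls, with a median of 5.14, and at 4.04 to 6.17 CPM in GWI colons, with a median of 5.03. Control replicates 7, 8 and 9 had 10.6, 8.72 and 7.04 CPM and were above every GWI mouse, while the other Controls shared the range of the GWI colons or lay just below it. The log2 fold change of -0.26 (SE 0.19, adjusted p 0.307) did not pass the test. By library size alone 2 of these 3 Controls were above every GWI mouse. Without Control replicate 7 the Slc6a4 value was -0.13. Those 3 Controls, with GWI replicate 2, also had the lowest summed levels of 10 enteric neuron markers. With marker scores as covariates the Slc6a4 log2 fold change was -0.083 (small intestine), -0.24 (enteroendocrine), -0.32 (enteric neuron) and -0.63 (muscle minus epithelium), and its adjusted p spanned 0.0559 to 0.736 over all alternatives.

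Monoamine oxidases A and B sit on the mitochondrial outer membrane, and their genes lie side by side on chromosome X in opposite directions (Maoa at 16619698 to 16687818 on the plus strand, Maob at 16709282 to 16817366 on the minus strand). Maoa, the form with the higher affinity for serotonin, had 924 to 2941 CPM in Controls, with a median of 1145, and 928 to 1853 CPM in GWI colons, with a median of 1324. Control replicate 9, with 2941 CPM, was above every other mouse, and GWI replicates 2, 6 and 7 (1772, 1853 and 1605 CPM) were above the other 8 Controls, which reached at most 1401 CPM. The log2 fold change was 0.02 (SE 0.21, adjusted p 0.953), and it was 0.25 without Control replicate 9 (adjusted p 0.194). With the muscle minus epithelium marker score as a covariate the Maoa value turned to -0.61 and was called (adjusted p 0.0205), and its adjusted p spanned 0.0205 to 0.990 over all alternatives.

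Maob had 31.1 to 104 CPM in Controls, with a median of 52.9, and 30.9 to 41.9 CPM in GWI colons, with a median of 32.3. In 7 of 9 Controls Maob was above every GWI mouse, and Control replicates 1 and 8 were within the GWI range with 31.1 and 34.9 CPM. Maob fell by 0.67 on the log2 scale (SE 0.19, adjusted p 0.0154), which makes Controls 1.59-fold higher than GWI. Control replicate 6 held the highest value, and without it and replicate 7 Maob was still called (-0.52, adjusted p 0.0302). The muscle minus epithelium covariate was the only alternative that ended the call (-0.39, adjusted p 0.245), and the adjusted p spanned 0.000632 to 0.245 over all alternatives.

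Downstream of the oxidases, Aldh2, which oxidises the aldehyde product, was at a log2 fold change of 0.45 (SE 0.18, adjusted p 0.0722). Ugt1a6a, which conjugates serotonin with glucuronic acid, was at 0.60 (SE 0.25, adjusted p 0.0844), and its count may include reads of other Ugt1a transcripts that share its last exons. Aldh2 was called without Control replicate 1 (0.53) or 2 (0.54), and Ugt1a6a without Control replicate 9 (0.81) or GWI replicate 5 (0.69), while the Ugt1a6a value turned to -0.21 with the muscle minus epithelium marker score as a covariate. Aldh1b1 and Sult1a1 had log2 fold changes of 0.06 and -0.13. Of these 7 breakdown and conversion genes 4 were tested and 0 were called by edgeR, with 2 genes under an unadjusted p of 0.05, 1 called by the DESeq2 Wald test and 2 by limma-voom. Ugt1a6b failed the filter, and Aanat and Asmt, the genes of melatonin synthesis, had at most 3 and 1 counts in any mouse.

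Tryptophan that enters the kynurenine route is lost to serotonin synthesis. Afmid, the kynurenine formamidase of its second step, rose by a log2 fold change of 0.65 (SE 0.14, adjusted p 0.00468), from 4.57 ± 0.99 CPM (SD, n = 9) in Control to 7.18 ± 0.97 CPM (SD, n = 8) in GWI colons. In 7 of 8 GWI mice Afmid was above every Control. The call was lost with the muscle minus epithelium marker score as a covariate (0.35, adjusted p 0.138), and the adjusted p of Afmid spanned 2.08e-05 to 0.138 over all alternatives. Ido1, which opens the route in gut tissue, was at 0.51 (SE 0.47, adjusted p 0.427). The Ido1 value ran from 0.36 to 0.85 with 1 mouse left out and from -0.095 to 1.14 over all alternatives that tested it. Tdo2, the form of liver, was at -0.80 (SE 0.37, adjusted p 0.109), and Kmo at -0.53 (adjusted p 0.228). Control replicate 9 had the highest Tdo2 level, 12.5 CPM against 4.58 CPM in the next Control, and without it the Tdo2 value was -0.29. Tdo2 was called with the muscle minus epithelium (-1.45, adjusted p 0.0092) and enteric neuron (-0.79, adjusted p 0.0130) marker scores as covariates, and its adjusted p spanned 0.0092 to 0.583 over all alternatives. Ido2, Kynu, Haao and Qprt failed the filter. Of 4 genes tested among 8, edgeR and the DESeq2 Wald test each called 1 (Afmid), and limma-voom called 2 (Ido1 and Afmid).

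Tryptophan reaches cells through 5 transporter genes that were all tested, and 0 of them were called by edgeR, with 1 gene under an unadjusted p of 0.05, 0 called by the DESeq2 Wald test and 1 by limma-voom. The gene nearest to the threshold was Slc6a19, the neutral amino acid transporter of the small intestinal brush border, at -1.54 (SE 0.57, adjusted p 0.0508). Its high values belonged to Control replicates 6 and 7, with 8.86 and 28.4 CPM, the mice with small intestine transcripts, and all other mice were at 2.85 CPM or less. Without Control replicate 7 the Slc6a19 value was -0.59 and without both it was -0.099, while it was called without Control replicate 1, 2, 3, 4, 8 or 9 (-1.63 to -1.67). Slc7a5, Slc3a2, Slc16a10 and Slc7a8 had log2 fold changes of 0.12, 0.14, 0.01 and -0.44, and Slc7a8 was called without Control replicate 9 (-0.52). Each of them changed sign under at least 1 alternative. Over all alternatives they ran from -0.085 to 0.49, -0.15 to 0.72, -0.11 to 0.24 and -0.70 to 0.49 in that order.

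Together the 6 lists of other pathway genes hold 42 genes, of which 25 were tested, 1 was called higher (Afmid) and 1 was called lower (Spr). Their median log2 fold change was -0.11, and both counts were below the share of all tested genes called. Leaving out Control replicate 1 and GWI replicate 5 raised the number of pathway genes called from 2 to 5, and leaving out Control replicate 1 alone raised it to 7. The calls over all tested genes rose as well, to 34.9% and 34.2%. Of the 23 tested pathway genes not called, 15 were called and 15 changed sign under at least 1 alternative, and with 1 mouse left out these were 8 and 5.

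**Figure D2:**
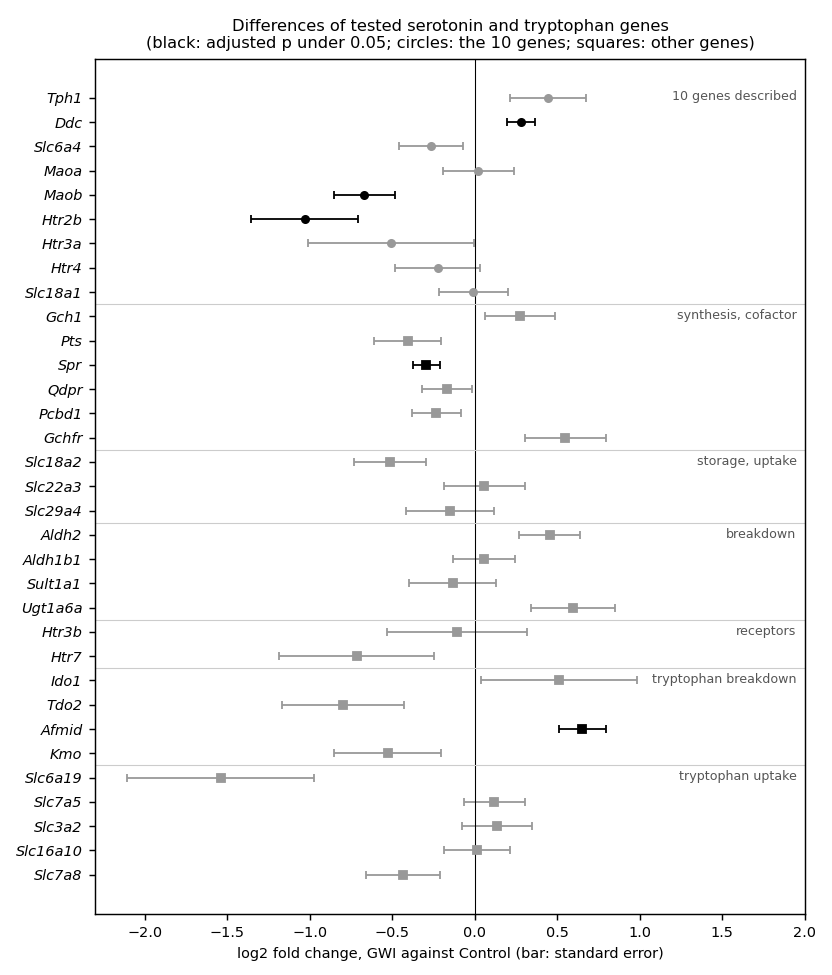
Log2 fold change (horizontal axis, GWI against Control, bars are standard errors) of the tested serotonin genes (circles) and other tested pathway genes (squares), in black where the adjusted p was under 0.05. Ddc and Afmid lay to the right at 0.28 and 0.65, and Maob, Htr2b and Spr to the left at -0.67, -1.03 and -0.29.

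Among the receptors, Htr2b, a Gq-coupled receptor found on smooth muscle, interstitial cells and neurons of the gut, had the largest log2 fold change of the 9 tested members. Htr2b (chromosome 1, 86099026 to 86111970, minus strand) had 5.45 to 41.3 CPM in Controls, with a median of 17.1, and 6.26 to 18.4 CPM in GWI colons, with a median of 8.88. In counts this was 105 to 933 in Controls and 109 to 310 in GWI mice. Of 9 Controls 4 were above every GWI mouse, Control replicate 8 was below all of them, and GWI replicate 8 stood above the other GWI mice, which reached at most 10.1 CPM. Htr2b fell by 1.03 on the log2 scale (SE 0.32, adjusted p 0.0252), which makes Controls 2.04-fold higher. The call was lost without Control replicate 6, the highest mouse (-0.83, adjusted p 0.0525), without GWI replicate 4, the lowest GWI mouse (-0.96, adjusted p 0.0518), without Control replicates 6 and 7 (-0.86, adjusted p 0.0602), and with the small intestine (-0.91, adjusted p 0.0545), enteroendocrine (-0.86, adjusted p 0.0546) or muscle minus epithelium (-0.56, adjusted p 0.306) marker score as a covariate. A block for replicate number also ended it (-0.83, adjusted p 0.155). Its adjusted p spanned 0.00604 to 0.306 over all alternatives, and its direction was the same in each. Htr2b shares 252 exon bases with Psmd1 on the opposite strand, a proteasome gene whose log2 fold change was -0.25 (SE 0.11, adjusted p 0.0927), and since the strand setting of the counting was not given, reads of that stretch may count for either gene.

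Htr3a encodes a subunit of the serotonin-gated ion channel of enteric and sensory neurons. Htr3a (chromosome 9, 48899213 to 48911099, minus strand) varied more than any other tested member relative to its mean, from 1.77 to 30.0 CPM in Controls, with a median of 9.08, and from 3.28 to 16.2 CPM in GWI colons, with a median of 5.26. Of 9 Controls 3 were above every GWI mouse and 3 were below, with Control replicate 1 highest and replicates 7, 8 and 9 among the lowest. The log2 fold change was -0.51 (SE 0.50, adjusted p 0.459), with a 95% interval of -1.50 to 0.48. It turned to 1.07 (adjusted p 0.234) with the muscle minus epithelium score and to 0.29 (adjusted p 0.229) with the enteric neuron score as a covariate, and was -0.14 without Control replicate 1, so the data give Htr3a no direction.

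Htr4, a Gs-coupled receptor that promotes transmitter release and motility, had 2.84 to 10.7 CPM in Controls, with a median of 6.13, and 3.57 to 7.60 CPM in GWI colons, with a median of 5.42. Control replicates 1, 7, 8 and 9 were above every GWI mouse and 2 Controls were below, so the GWI colons lay within the Control range. The log2 fold change of Htr4 was -0.23 (SE 0.26, adjusted p 0.523), and its sign changed under some alternatives. It ran from -0.32 to -0.10 with 1 mouse left out and from -0.73 to 0.36 over all alternatives. The lowest adjusted p was 0.0808, with the muscle minus epithelium marker score as a covariate.

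Only Htr3b and Htr7 of 11 other serotonin receptor genes passed the filter. Htr3b, which joins Htr3a in the channel, had 1.18 ± 0.82 CPM (SD, n = 9) in Control and 1.10 ± 0.57 CPM (SD, n = 8) in GWI colons, and Htr7, a Gs-coupled receptor, had 1.48 ± 1.03 and 0.90 ± 0.61 CPM. Their log2 fold changes were -0.11 (SE 0.43, adjusted p 0.867) and -0.72 (SE 0.47, adjusted p 0.256), and of these receptors 0 were called by edgeR or the DESeq2 Wald test, 0 had an unadjusted p under 0.05 and 1 (Htr7) was called by limma-voom. Over the alternatives that tested them, Htr3b ran from -0.54 to 1.19 and was called in 1, and Htr7 ran from -1.32 to 0.51. Htr1a, Htr1f, Htr5a, Htr5b and Htr6 had at most 5 counts in any mouse. Htr1b, Htr1d, Htr2a and Htr2c reached at most 17, 28, 17 and 10 counts. Htr1d had 0.44 ± 0.34 CPM (SD, n = 9) in Control and 0.87 ± 0.51 CPM (SD, n = 8) in GWI colons, with 4 of 8 GWI mice above every Control, and in the fit without a filter its log2 fold change was 0.97 (adjusted p 0.226). Htr2a (0.27 ± 0.21 and 0.14 ± 0.10 CPM) and Htr2c (0.30 ± 0.16 and 0.14 ± 0.091 CPM) went the other way, with 4 and 3 of 9 Controls above every GWI mouse, and in that fit they were at -0.99 (adjusted p 0.228) and -1.01 (adjusted p 0.113). Htr1b was at -0.18 (adjusted p 0.843).

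Levels of different genes were compared per kilobase of annotated exons, and neighbours in the order were taken to differ beyond their spread where the gap between means exceeded the sum of both SDs. Maoa was highest in both groups, with 326 ± 148 CPM per kb (SD, n = 9) in Control and 331 ± 80.6 CPM per kb (SD, n = 8) in GWI colons, and Maob came next with 20.1 ± 7.73 and 12.6 ± 1.77 CPM per kb. Ddc (9.63 ± 1.31 CPM per kb) and Htr2b (9.40 ± 5.34) followed in Control colons and did not differ beyond their spread. In GWI colons Ddc, at 11.7 ± 0.91 CPM per kb, did not differ from Maob beyond the spread, and Tph1 (6.90 ± 1.63), Htr2b (4.60 ± 1.73) and Htr3a (3.59 ± 2.08) followed, each within the spread of the next. Control colons had 5.11 ± 4.53 CPM per kb of Htr3a and 5.07 ± 1.92 of Tph1, again within their spread. Slc6a4, Htr4 and Slc18a1 lay lowest of the tested members, between 1.12 and 1.35 CPM per kb in either group, and their order was within the spread. Tph2 was at 0.022 CPM per kb in Control and 0.017 in GWI colons.

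For all 9 tested members the SD over Controls was larger than over GWI mice, both in CPM and in log2 CPM. Most genes of the colon did the same, 81.4% of all tested genes in CPM and 82.8% in log2 CPM. The wider Control spread was therefore shared by most of the table. For Maob the SD was 21.6 CPM in Control and 4.93 CPM in GWI colons, and without Control replicate 6 the Control SD was 12.7 CPM. In CPM the Control SD was no longer the larger for Tph1 and Slc18a1 without Control replicate 1, or for Ddc and Maoa without Control replicate 9.

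Some members moved together from mouse to mouse. After the mean of its group was taken from each mouse, 36 pairs of the 9 tested members were compared over the 17 mice, and 5 pairs had Benjamini-Hochberg adjusted permutation p-values under 0.05 for both Pearson's r and Spearman's rho. Tph1 and Slc18a1, both of enterochromaffin cells, had r = 0.92 (permutation p = 1e-05, the smallest these permutations can give, adjusted 0.00036) and rho = 0.88 (permutation p = 4e-05, adjusted 0.00072). Without the 2 mice farthest from the median of Tph1, Control replicate 1 and GWI replicate 5, r was 0.85. Within Controls r was 0.97 and within GWI mice 0.92, so the relation was present in each group.

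Maob and Htr2b, the members called lower, also moved together, with r = 0.85 (permutation p = 6e-05, adjusted 0.00108) and rho = 0.87 (permutation p = 3e-05, adjusted 0.00072). Without Control replicates 6 and 1, the mice farthest from the median of Maob, r was 0.86, and it was 0.91 within Controls and 0.55 within GWI mice. Htr3a ran against Tph1, with r = -0.75 (permutation p = 0.00021, adjusted 0.00252) and rho = -0.75 (permutation p = 0.00061, adjusted 0.00732), and r was -0.61 without Control replicate 1 and GWI replicate 5. The other pairs were Htr3a with Slc18a1 (r = -0.72, permutation p = 0.00068, adjusted 0.00612, rho = -0.72, permutation p = 0.00179, adjusted 0.0161) and Htr3a with Slc6a4 (r = -0.72, permutation p = 0.00108, adjusted 0.00778, rho = -0.65, permutation p = 0.00578, adjusted 0.0416). Without the 2 farthest mice these were r = -0.62 and r = -0.57. Within Controls the r of Htr3a was -0.84 with Tph1, -0.82 with Slc18a1 and -0.81 with Slc6a4, and within GWI mice it was -0.42, -0.61 and -0.28. All levels share the scaling of their library, which can move genes of 1 mouse together. The permutations exchange Control and GWI mice, although the SD over Controls was larger for all 9 members, which may also affect the p-values. They treat mice as independent. The sample codes in the labels share a first part within Controls 3, 4 and 5, Controls 7 and 8, and GWI mice 1 and 2, 3 to 5, and 7 and 8, and the labels do not say whether this marks a cage, a litter or nothing, so the p-values may be too small. With the mean of each code removed, over the 12 mice that share one, Tph1 with Slc18a1 had r = 0.86, Maob with Htr2b 0.85, and Htr3a -0.44 with Tph1, -0.55 with Slc18a1 and -0.42 with Slc6a4.

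**Figure D3:**
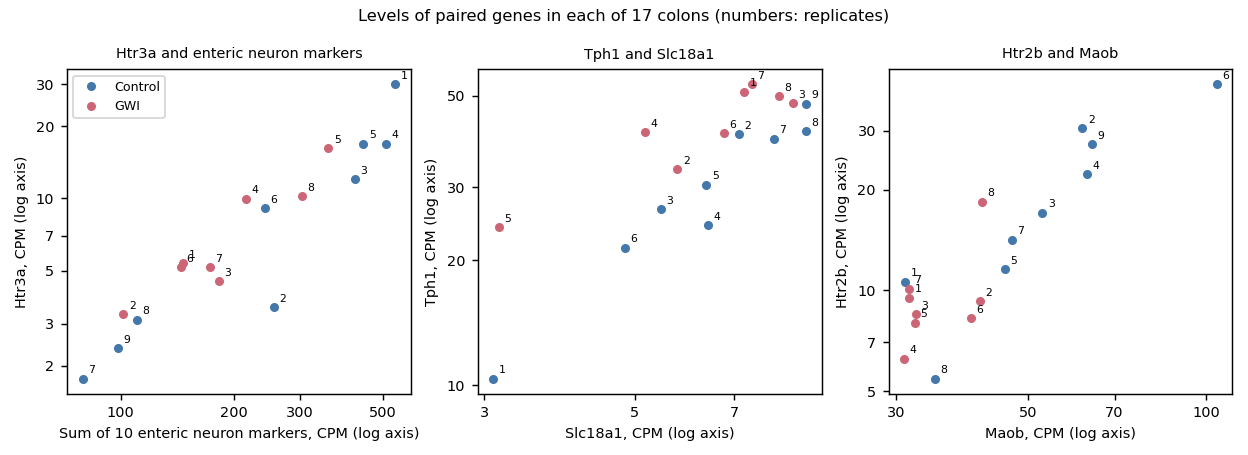
Levels in CPM on log axes in each Control (blue, n = 9) and GWI (red, n = 8) colon, with replicate numbers. Htr3a is drawn against the sum of 10 enteric neuron markers (79.2 to 539 CPM), Tph1 against Slc18a1 and Htr2b against Maob, and in each panel the points rise together.

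The Tph1 and Slc18a1 levels, compared within each mouse, set the groups apart more than either gene did. This ratio was chosen after the values were seen and was not tested. Controls had 3.35 to 5.68 counts of Tph1 for each count of Slc18a1, with a median of 4.78, and GWI mice had 5.62 to 7.89, with a median of 6.59. In 7 of 8 GWI mice the ratio was above every Control, and 8 of 9 Controls were below every GWI mouse. The ratio does not depend on the scaling of libraries. In Control replicate 1 and GWI replicate 5, with the fewest Slc18a1 counts (49 and 50), the ratios were 3.35 and 7.62.

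Levels of the members were also compared with 7 lists of cell type markers, which gave 63 relations, 15 of them with adjusted permutation p-values under 0.05 for both coefficients. With the mean of each sample code removed, all 15 kept their sign, and the size of r lay between 0.41 (Slc6a4 with enteric neuron markers) and 0.92 (Htr3a with enteric neuron markers). Tph1 and Slc18a1 rose with the 12 enteroendocrine and enterochromaffin markers, with r = 0.75 (permutation p = 0.00061, adjusted 0.0048, rho = 0.62, permutation p = 0.00991, adjusted 0.048) and r = 0.72 (permutation p = 0.00102, adjusted 0.00643, rho = 0.60, permutation p = 0.0123, adjusted 0.0484). Without Control replicate 1 and GWI replicate 8 r was 0.62 and 0.57. The 12 markers summed to 278 to 779 CPM in Controls, with a median of 585, and to 332 to 855 CPM in GWI colons, with a median of 657, and Chgb was the most abundant. Of these 12 markers 2 were called lower (Scg5 by 0.66 and Tac1 by 0.63 on the log2 scale), and none was at 0 in all mice. Enteric neurons also express Scg5 and Tac1, and whether this bears on their fall was not tested. The change was positive for 5 of the 12 markers and negative for 7, and its median was -0.05. Chga at 0.30 and Chgb at 0.24 were among the positive ones and did not pass the test. With 1 mouse left out, 0 to 4 of the 12 markers were called lower by edgeR. With all mice 4 had an unadjusted p under 0.05, 3 were called by the DESeq2 Wald test and 5 by limma-voom. The same members, Tph1 and Slc18a1, ran against 3 other lists, those of enteric neurons, smooth muscle and fibroblasts.

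Htr3a followed the 10 enteric neuron markers most closely of all relations computed, with r = 0.94 (permutation p = 1e-05, adjusted 0.00063) and rho = 0.92 (permutation p = 1e-05, adjusted 0.00063). The relation was present within Controls (r = 0.94), within GWI mice (r = 0.94) and without Control replicates 7 and 9 (r = 0.91). These markers summed to 79.2 to 539 CPM in Controls, with a median of 256, and to 102 to 358 CPM in GWI colons, with a median of 178, and Uchl1 was the most abundant. All 10 had a negative log2 fold change with a median of -0.58, and 0 were called by edgeR or the DESeq2 Wald test, 0 had an unadjusted p under 0.05, and 9 were called by limma-voom, which called 57.2% of all tested genes. Slc6a4 ran against the same markers, with r = -0.78 (permutation p = 0.0002, adjusted 0.00302) and rho = -0.74 (permutation p = 0.00123, adjusted 0.00969). Its r was -0.88 within Controls and -0.31 within GWI mice, and -0.68 without Control replicates 7 and 9. Tph1 also ran against them (r = -0.62, permutation p = 0.00613, adjusted 0.0203, rho = -0.63, permutation p = 0.00694, adjusted 0.0364), as did Slc18a1 (r = -0.61, permutation p = 0.00938, adjusted 0.0295, rho = -0.65, permutation p = 0.006, adjusted 0.0344). Without the same 2 mice these were r = -0.52 and r = -0.54.

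Of 10 smooth muscle markers 7 were called lower in GWI colons, as Maob and Htr2b were. All 10 had negative log2 fold changes and an unadjusted p under 0.05, and Actg2, Des and Cnn1 did not pass the test. The DESeq2 Wald test called 9 of the 10 markers lower, and limma-voom called 10. Tagln was at -1.17 (SE 0.27, adjusted p 0.00628) and Myh11, the most abundant, at -1.10 (SE 0.38, adjusted p 0.0407). With 1 mouse left out, between 2 (without Control replicate 6 or GWI replicate 3, 4, 6 or 7) and 10 (without GWI replicate 5) were called lower. Their summed level was 3690 to 23923 CPM in Controls, with a median of 11584, and 3658 to 11832 CPM in GWI colons, with a median of 5142. Within groups, a relation of Maob or Htr2b with these markers was not detected. The r was 0.24 for Maob (permutation p = 0.353, adjusted 0.505, rho = 0.19, permutation p = 0.472, adjusted 0.676) and 0.32 for Htr2b (permutation p = 0.216, adjusted 0.35, rho = 0.22, permutation p = 0.406, adjusted 0.639). Without Control replicates 9 and 6 these were 0.13 and 0.39. Other members did follow these markers. Tph1 ran against them with r = -0.76 (permutation p = 0.00031, adjusted 0.00325, rho = -0.74, permutation p = 0.00121, adjusted 0.00969), Slc18a1 with r = -0.77 (permutation p = 0.00024, adjusted 0.00302, rho = -0.76, permutation p = 0.00064, adjusted 0.00969) and Slc6a4 with r = -0.71 (permutation p = 0.00144, adjusted 0.00756, rho = -0.74, permutation p = 0.00103, adjusted 0.00969). Htr3a rose with them, with r = 0.77 (permutation p = 0.00024, adjusted 0.00302, rho = 0.78, permutation p = 0.00038, adjusted 0.00969). Without Control replicates 9 and 6 the r was -0.73 for Tph1, -0.77 for Slc18a1 and Slc6a4, and 0.80 for Htr3a.

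Of 11 colon epithelium markers 4 were called higher, namely Epcam, Cdh1, Vil1 and Muc2, with Cdh1 at 0.62 (SE 0.13, adjusted p 0.00422). The other 7 did not pass the test, and 3 of them had negative log2 fold changes, Car1 at -0.06, Slc26a3 at -0.06 and Lgals4 at -0.11. The DESeq2 Wald test called 5 of the 11 markers higher, and limma-voom called 8. With 1 mouse left out, between 2 and 8 (without Control replicate 1) were called higher. The muscle minus epithelium score is the difference of these lists. Beyond its use as a covariate, its part in the Tph1, Ddc, Spr, Afmid, Maob and Htr2b values was not tested. In the log2 levels used for correlations, Control replicate 1 was the highest Control for epithelium markers, 0.79 above the group mean. Its summed level, 29673 CPM, was below the Control median of 34546 CPM. How far the score rests on single markers such as Aqp8 was not tested.

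Fibroblast markers had 2 of 7 called lower (Dcn and Dpt), with summed levels of 343 to 1025 CPM in Controls and 332 to 882 CPM in GWI colons and Col3a1 as the most abundant. The DESeq2 Wald test called 2 fibroblast markers, and limma-voom called 5. Against these markers ran Tph1 (r = -0.72, permutation p = 0.00097, adjusted 0.00643, rho = -0.74, permutation p = 0.00115, adjusted 0.00969), Slc18a1 (r = -0.75, permutation p = 0.0005, adjusted 0.0045, rho = -0.73, permutation p = 0.0014, adjusted 0.0098) and Maoa (r = -0.77, permutation p = 0.00019, adjusted 0.00302, rho = -0.71, permutation p = 0.00217, adjusted 0.0137). Htr3a rose with them (r = 0.72, permutation p = 0.00134, adjusted 0.00756, rho = 0.75, permutation p = 0.00084, adjusted 0.00969). Without Control replicate 9 and GWI replicate 6 the r was -0.74, -0.78, -0.56 and 0.69 in that order. Markers of interstitial cells of Cajal had 1 of 5 called lower (Gja1), with 148 to 249 CPM in Controls and 130 to 253 CPM in GWI colons and Kit as the most abundant. The DESeq2 Wald test and limma-voom each called 2 (Etv1 and Gja1). Htr3a rose with these markers as well (r = 0.65, permutation p = 0.00538, adjusted 0.02, rho = 0.61, permutation p = 0.0113, adjusted 0.0484), with r = 0.54 without GWI replicate 5 and Control replicate 4. Small intestine markers had 3 called lower (Fabp6, Anpep and Lyz1) of 8 tested among 11, and these were high in Control replicates 6 and 7. Without both of these mice 0 were called, without Control replicate 7 alone 2, and without Control replicate 1 alone 5 were called lower. The DESeq2 Wald test called the same 3. With the muscle minus epithelium score 0 were called, and with limma-voom or a block for replicate number 0 were called lower and 1 higher. Their summed level was 309 to 2042 CPM in Controls and 372 to 988 CPM in GWI colons, with Slc10a2 as the most abundant and Lct and Apoa4 at no more than 12 counts in any mouse. Of the 8 tested, 6 had negative and 2 positive log2 fold changes, the latter being Slc10a2 and Apob at 0.45 each. Mast cells, which can also store serotonin, left almost no transcripts, since all 10 markers failed the filter, their sum was at most 2.41 CPM in any mouse, and Tpsb2 was the most abundant at a mean of 0.52 CPM.

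For each member called, the 3 tested genes with the most similar levels over the 17 mice were taken, after the group means were removed. They were picked from all tested genes for their r, so no p is given. Nearest to Ddc were Arl8b (r = 0.91, rho = 0.81), Ptpmt1 (r = 0.89, rho = 0.71) and Fam149b (r = 0.89, rho = 0.75), and none of them rose with it: Ptpmt1 fell (by 0.42 on the log2 scale, adjusted p 0.0137), while Arl8b at 0.00067 and Fam149b at -0.17 did not pass the test. Nearest to Maob were Ctla2a (r = 0.95, rho = 0.90), Jmy (r = 0.92, rho = 0.84) and Gabra3 (r = 0.90, rho = 0.77), and all 3 fell, by 1.39, 0.56 and 1.19 on the log2 scale (adjusted p 0.0339, 0.0275 and 0.0086). Among those nearest to Htr2b were Pdzrn4 (r = 0.94, rho = 0.91) and Tnnt2 (r = 0.92, rho = 0.95). Of these Pdzrn4 fell (by 1.20 on the log2 scale, adjusted p 0.00295), while Tnnt2 at -0.65 (adjusted p 0.260) did not pass the test.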

How the data were processed

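Poly(A)-selected RNA from 17 colons was sequenced by the authors as paired-end reads. Their notes name Trimmomatic 0.36 for trimming, STAR 2.5.2b for alignment to GRCm38, and featureCounts for counting, and they deposited whole-number counts per gene without normalization. The annotation release and the strand setting are not given in the sources used here. No molecular identifiers were used, so technical noise can exceed counting error.

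The table has 23719 rows with 23671 distinct symbols, and all 17 columns matched a sample. The quasi-likelihood test of edgeR 4.0.16 (robust glmQLFit, then glmQLFTest, in R 4.3.3) was run after filterByExpr and TMM scaling, with group as the only term. P-values were adjusted by Benjamini-Hochberg over the 14146 tested genes, and a gene was called at an adjusted p under 0.05. Standard errors came from the fold change and its F statistic, and 95% intervals are 1.96 standard errors to each side. The procedure was tested on simulated data in which both groups had the same spread, unlike the wider Control spread seen here. Correlations used log2 CPM with a prior count of 2, the mean of each group removed, and two-sided permutation tests with 100000 resamples (Python 3.11.15). Gene positions, exon lengths and overlaps came from GENCODE annotation of GRCm38.

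Alternatives were DESeq2 size factors, upper-quartile factors, library size alone, the DESeq2 1.42.0 Wald test, limma-voom 3.58.1 with sample quality weights, no robust estimation, no filter, the replicate number as a block, a minimum of 10 counts in each mouse, 4 marker scores as covariates, and mice left out singly or in pairs. The named genes were the 10 members, pathway genes that were called or failed the filter, the 3 genes nearest to each called member, and marker lists as sums. Other genes were named after their values were seen. 2 genes that the lists or this rule would name are not reported here, and the counts given are unchanged by this. The members and lists were chosen with earlier results of these data known.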

Additional observations from a re-analysis of the deposited data

Results flagged for a closer look

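In 7 of 32 groups of values checked, 1 mouse lay far from the others of its group. The rule is set to flag about 1 in 20 groups of independent, normally distributed values. These groups share the same mice and hold CPM values that need not be normal. The count of flags can therefore not be compared with chance. Control replicate 9 was highest for Maoa (2941 CPM, next Control 1401 CPM) and for Ddc (56.9 CPM, next 43.8 CPM). Its TMM factor was the lowest (0.799, others 0.941 to 1.11), and by library size alone its Maoa level was still the highest Control (2347 CPM, next 1370), while its Ddc level (45.4) was below that of Control replicate 3 (48.8). Without it the Maoa log2 fold change was 0.25 and the Ddc value 0.35. Control replicate 6 was highest for Maob (104 CPM, next 64.1 CPM), and GWI replicate 8 was highest for Htr2b (18.4 CPM, next 10.1 CPM). Among summed marker levels, Control replicate 1 was lowest for enteroendocrine markers (278 CPM, next 530 CPM), GWI replicate 1 was highest for markers of interstitial cells of Cajal (253 CPM, next 182 CPM), and Control replicate 7 was highest for small intestine markers (2042 CPM, next 1104 CPM).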

How the results depend on the processing

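The 33 alternatives kept the direction of Tph1, Ddc, Slc6a4, Maob, Htr2b, Spr and Afmid, although the muscle minus epithelium score ended the calls of Ddc, Maob, Htr2b, Spr and Afmid. With that score as a covariate 3745 of 14146 tested genes were called (26.5%), beside 3792 (26.8%) without it. The genes called over all tested genes (3792) became 8091 with limma-voom and 2241 with the replicate number as a replicate block, and lay between 2781 and 4818 with 1 mouse left out. Deviations of same-numbered mice correlated from -0.51 to 0.11, and whether shared sample codes mark a cage or litter is not given, so codes were not fitted. Under the replicate block 1 member was called lower, Htr4 was at 0.00054 and Slc18a1 at 0.060, and Htr2b was at -0.83 (adjusted p 0.155). Upper-quartile factors moved the median log2 fold change of all genes from -0.06 to -0.15 and the split of calls from 1889 higher and 1903 lower to 1214 and 2992.

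Members called higher (1 in the report) were 0 with upper-quartile factors, without Control replicates 6 and 7, and with the muscle minus epithelium score, and 2 with limma-voom and with the enteroendocrine score. Members called lower (2) were 1 (Maob) without Control replicates 6 and 7 and with the small intestine or enteroendocrine score, and 1 to 2 with 1 mouse left out. With the muscle minus epithelium score 1 member was called lower, Maoa, while Maob and Htr2b were not called. Other pathway genes called (2 of 25 tested in the report) were 4 with upper-quartile factors, 11 with limma-voom, 8 without Control replicates 1 and 9, 10 with the enteric neuron score, 5 without Control replicate 1 and GWI replicate 5 (chosen after seeing the data), and 2 to 7 with 1 mouse left out. Over all tested genes the share called was 29.7%, 57.2%, 39.3%, 38.9%, 34.9% and 19.6% to 34.2% in that order, beside 26.8% in the report. A rise of the pathway count is therefore not particular to these genes.

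Maoa turned to -0.068 with upper-quartile factors, -0.066 without Control replicates 6 and 7, -0.61 with the muscle minus epithelium score and -0.071 with the enteric neuron score, and ran from -0.052 to 0.25 with 1 mouse left out. Htr3a turned to 1.07 with the muscle minus epithelium score and 0.29 with the enteric neuron score. Htr4 turned to 0.36 with limma-voom and 0.0081 without Control replicates 1 and 9. Slc18a1 turned to 0.067 with limma-voom, 0.078 with the small intestine score, 0.19 with the enteroendocrine score and 0.0030 without Control replicate 1 and GWI replicate 5, and ran from -0.086 to 0.094 with 1 mouse left out. The cause of these changes was not tested. Tph2 and most other receptor genes had few counts, which limits what can be said of them, and the cause of the low counts was not tested.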
